A study of Mus musculus with 2 samples.

Results

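Dazl, Boll, Ddx25, Elavl1, Khdrbs1, Khdrbs3, Cpeb1, Cpeb2 and Tarbp2 encode RNA-binding regulators that act on mRNA in germ cells. They were taken by symbol from the gene rows of the count matrix, which gave 1 row each and thus 9 of 50686 genes, and they were followed over all 2552 cells. Single-cell RNA was measured with the Chromium 3' v2 droplet chemistry in 1 library from the testes of each of 2 wild-type mice of the strain C57Bl/6J Crl, both 8 weeks old. Neither animal carried a transgene or received a treatment, so the design holds no treated group, and the comparisons were made between cell clusters within the same animals. Mouse 1 gave 1237 cells with 27450497 unique molecular identifiers (UMIs, each marking 1 captured RNA molecule) and mouse 2 gave 1315 cells with 30302332 UMIs. The cells held 7114 to 154431 UMIs, and no barcode was shared by the mice. The 9 genes took 66988 UMIs, or 0.116% of the total.

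In mammalian spermatogenesis, transcription winds down as the spermatid nucleus condenses, and many mRNAs made in spermatocytes and round spermatids are stored and translated later. RNA-binding proteins decide when these mRNAs are exported, silenced, given a longer poly(A) tail and translated. The DAZ family members Dazl and Boll bind U-rich sites in 3' untranslated regions and promote translation, the helicase Ddx25 (GRTH) carries mRNAs to cytoplasmic granules, Cpeb proteins bind the cytoplasmic polyadenylation element, Khdrbs1 (Sam68) and Khdrbs3 (SLM2) belong to the STAR family, Elavl1 (HuR) binds AU-rich sequences, and Tarbp2 binds double-stranded RNA.

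K-means clustering, run without the 9 genes and without the related genes counted below, gave 6 clusters with at least 20 cells in each mouse, and these held 2533 cells. In the order of their median diffusion pseudotime they were an early spermatocyte-like cluster (163 cells), a pachytene or later spermatocyte-like cluster (526 cells), a cluster led by Ssxb3 and Ssxb1 that stayed without a name (689 cells, here the Ssxb-rich cluster), a round spermatid-like cluster (449 cells), and an earlier (197 cells) and a later (509 cells) elongating or condensing spermatid-like cluster. Between 8 and 12 markers of each named class were raised, whereas 2 of 12 round spermatid markers were raised in the Ssxb-rich cluster. Round spermatid was still its highest-scoring class (0.59, against 0.30 for pachytene or later spermatocyte). With another random seed the matching cluster of 706 cells took that name with 3 of 12 markers, and it was counted with the spermatids in that alternative. Another 19 cells formed Sertoli-like, spermatogonium-like and Leydig-like clusters of 7, 7 and 5 cells and entered no test. The median depth was 18797 to 23701 UMIs per cell in the first 5 clusters and 11702 in the last, and 25 cells were called as doublets and kept.

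Levels are given as UMIs of a gene in 1000000 UMIs (CPM) of each mouse's cells in a cluster. CPM is a share of the RNA captured, and levels were compared only within a gene, not between genes. Differences were tested on the summed UMIs with edgeR, with log2 fold changes ± SE on the TMM scale and p-values adjusted by Benjamini-Hochberg over all 14138 rows tested. All 9 genes passed the filter on low counts, Cpeb1 through its level in early spermatocytes.

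Promoter windows were found for 6 of the 9 genes in the RefSeq table (GRCm38.p6), and those of 4 genes are shown because their levels ran in opposite directions between early and later spermatocytes, as described below. Dazl and Cpeb1 were lower in the later cells and Ddx25 and Tarbp2 were higher. For Cpeb1 this describes its few counts only, as it passed the filter through its level in early spermatocytes. Each window runs from 250 bases before to 50 bases after the transcription start, 5' to 3' on the gene's own strand, with every CpG in capitals. The windows lie at chr17:50293571-50293870 (minus strand, Dazl), chr7:81454709-81455008 (minus strand, Cpeb1), chr9:35558421-35558720 (minus strand, Ddx25) and chr15:102517942-102518241 (plus strand, Tarbp2).
Dazl promoter: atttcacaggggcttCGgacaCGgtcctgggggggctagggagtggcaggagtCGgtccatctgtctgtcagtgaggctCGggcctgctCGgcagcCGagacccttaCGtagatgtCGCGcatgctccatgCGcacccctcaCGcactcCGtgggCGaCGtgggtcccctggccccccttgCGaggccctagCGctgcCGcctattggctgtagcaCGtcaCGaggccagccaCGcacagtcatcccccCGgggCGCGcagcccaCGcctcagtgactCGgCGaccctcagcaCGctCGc
Cpeb1 promoter: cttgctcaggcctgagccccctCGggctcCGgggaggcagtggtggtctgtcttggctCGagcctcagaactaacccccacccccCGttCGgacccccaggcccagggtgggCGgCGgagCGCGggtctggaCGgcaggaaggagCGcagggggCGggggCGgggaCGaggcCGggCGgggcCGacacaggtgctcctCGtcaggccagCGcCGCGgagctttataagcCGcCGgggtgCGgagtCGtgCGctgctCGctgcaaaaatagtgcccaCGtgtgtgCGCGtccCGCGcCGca
Ddx25 promoter: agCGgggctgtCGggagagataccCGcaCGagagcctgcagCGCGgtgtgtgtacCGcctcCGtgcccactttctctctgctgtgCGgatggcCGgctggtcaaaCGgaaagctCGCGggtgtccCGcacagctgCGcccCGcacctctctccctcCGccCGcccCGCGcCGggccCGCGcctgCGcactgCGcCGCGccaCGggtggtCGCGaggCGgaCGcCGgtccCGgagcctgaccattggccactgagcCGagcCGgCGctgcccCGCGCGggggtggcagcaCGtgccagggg
Tarbp2 promoter: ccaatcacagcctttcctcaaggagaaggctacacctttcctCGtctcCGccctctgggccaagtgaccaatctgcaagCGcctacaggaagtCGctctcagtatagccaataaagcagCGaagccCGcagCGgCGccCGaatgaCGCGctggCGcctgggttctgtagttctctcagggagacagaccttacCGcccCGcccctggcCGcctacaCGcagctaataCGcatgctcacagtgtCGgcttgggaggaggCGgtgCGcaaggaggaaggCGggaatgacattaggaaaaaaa

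The windows of all 6 genes held more CpG than the median of 7 over 32851 promoter windows. Dazl had 28 CpG, Cpeb1 33, Ddx25 41, Tarbp2 21 and Elavl1 39, while Boll had 13 at its first listed start and 39 at its second. The share of all windows with fewer CpG was 62.1% for the first Boll window, 75.2% for Tarbp2 and 85.8% for Dazl. For the others it was 91.4% to 96.5%. The E-box CACGTG, searched on both strands, was present in the Ddx25, Cpeb1 and first Boll windows and in 7.15% of all windows. The CpG counts of Dazl and Cpeb1 lay between those of Tarbp2 and Ddx25. A link between CpG count and direction was not tested, and these few genes could not decide it.

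The letters TTTTAT, the core of the cytoplasmic polyadenylation element, were searched on the transcript strand in the last 100 bases of 1 annotated transcript per gene. They occurred in 13.8% of 19924 such tails. Among the 9 genes they occurred in Boll, Ddx25 and Khdrbs1, and among 15 mRNAs reported as targets of these proteins in Ace, Ddx4 and Hmgb2. The sites of the 3 member genes are shown because Cpeb1 and Cpeb2 are named for binding this element, with TTTTAT in capitals, at chr1:55346266-55346289 (minus strand, Boll), chr9:35536647-35536670 (minus strand, Ddx25) and chr4:129713895-129713918 (minus strand, Khdrbs1) of GRCm38.
Boll site: atcctttcTTTTATgtaataaatt
Ddx25 site: agatattaacctTTTTATtgaaaa
Khdrbs1 site: ctcTTTTATataaacggtgacagc

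Boll carried 3 such elements, of which the one shown starts 25 bases from the transcript end, and the single element of Ddx25 starts 12 bases from the end. The annotated Boll and Khdrbs1 transcripts used here end inside the gene, short of its farthest annotated 3' end. These matches describe the letters in the annotated tails. Binding and poly(A) tail length were not measured.

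By mean CPM, 7 of the 9 mRNAs, Cpeb1 among them, were highest in a spermatocyte-like cluster. The means of 7 were lowest in the later elongating or condensing cluster, although Tarbp2 in mouse 2 and Khdrbs1 in mouse 1 were lower in the earlier one. By total UMIs the median of all rows was itself -1.01 in spermatids against spermatocytes and -0.60 into the last cluster. The share of all rows with the same highest or lowest cluster was not counted, so these counts are no trait of the 9 genes. In spermatids (the mean of the round and both elongating or condensing clusters) against spermatocytes (the mean of the early and the pachytene or later clusters), 6 of the 8 genes other than Cpeb1 fell, 1 rose and Elavl1 did not pass the test. With the mouse as a replicate block Elavl1 was called lower (-0.45, edgeR adjusted p = 1.6e-04). Cpeb1 was called lower too, but it entered the test through its level in early spermatocytes. Over all rows tested, 42.8% were called lower and 42.2% higher in this comparison, so that a call by itself was common. The largest fall with counts in every cluster was that of Khdrbs1, by 2.80 ± 0.14 on the log2 scale, followed by Tarbp2, Khdrbs3 and Boll.

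**Figure D1:**
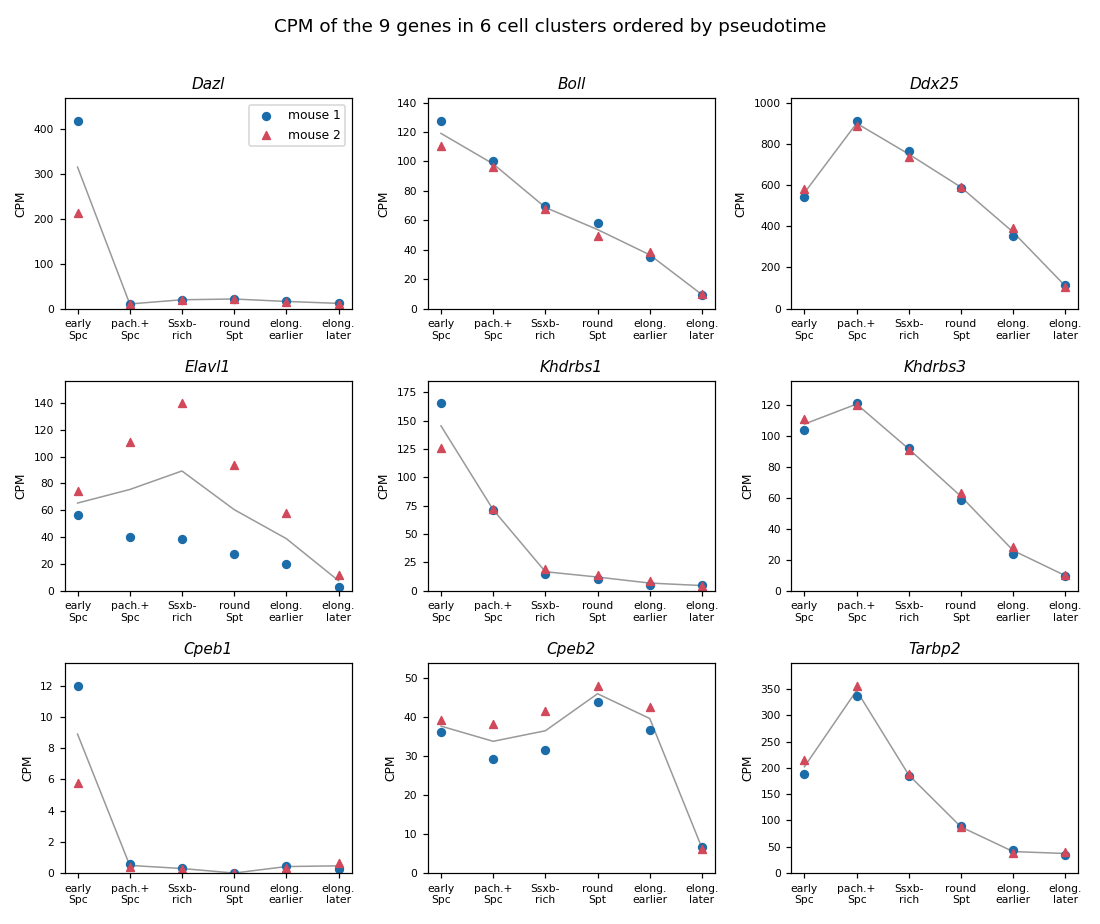
CPM (linear y axes starting at 0) of each gene in the 6 clusters in pseudotime order, with a point for each mouse and a line through the mean of both; Spc, spermatocyte-like; pach.+, pachytene or later; Spt, spermatid-like; elong., elongating or condensing. Dazl, Khdrbs1 and Cpeb1 start high and drop, Ddx25 and Tarbp2 peak in pachytene or later spermatocytes, Cpeb2 is lowest in the last cluster, and the mice part for Elavl1 in the second to the last cluster and for Dazl and Cpeb1 in early spermatocytes.

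The direction of such changes depends on the scale. Against the TMM scale, the median of all rows moved by -0.96 when counts were scaled by total UMIs and by -1.42 when they were scaled per cell. The share of calls that were higher in spermatids was 49.7% with TMM, 36.4% by total UMIs and 32.1% per cell. The 6 genes that fell also fell by total UMIs and per cell. Both scales moved the median of all rows down, so this agreement is no check. Protamine and transition protein mRNAs moved with these shares (Prm1 alone was 90944 and 67674 CPM in the last cluster), and their part in the fall of any single gene was not tested.

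Dazl, which is needed for the entry into meiosis, showed the sharpest drop. Its level was 417 CPM in mouse 1 and 212 CPM in mouse 2 in early spermatocytes, but 10.3 and 10.1 CPM in pachytene or later spermatocytes. Both mice were thus far higher in the first cluster, and the ranges did not overlap. The step was -4.63 ± 0.22 (log2, edgeR adjusted p = 5.6e-13). Dazl then rose to 19.9 and 19.08 CPM in the Ssxb-rich cluster (0.99 ± 0.22, edgeR adjusted p = 5.7e-04) and was 20.9 and 21.5 CPM in round spermatids. The rise into the Ssxb-rich cluster was not called when UMIs were scaled per cell (0.21, edgeR adjusted p = 0.44) or cells were thinned (0.28, edgeR adjusted p = 0.49). In the elongating or condensing clusters Dazl was between 9.96 and 16.2 CPM.

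Single cells showed that Dazl was uneven within the early cluster. In mouse 1, the lowest cell had 0, the median 5.5 and the highest 33 Dazl UMIs, and 32.7% of 52 cells had more than 10. In mouse 2, the lowest had 0, the median 3 and the highest 33, and 9.01% of 111 cells had more than 10. Outside this cluster and the spermatogonium-like and Sertoli-like cells, no cell exceeded 10. Some other genes differed between the mice in the same cluster and direction. Sycp3, an axial element protein of the synaptonemal complex, was 1696 CPM in mouse 1 and 1071 CPM in mouse 2, and Hmgb2, a chromatin protein of dividing and early meiotic cells, was 1152 and 775 CPM. The spermatid mRNAs Prm1 (2967 and 1380 CPM) and Tnp1 (1013 and 490 CPM) were also higher in mouse 1. The part of the cells' stage in the Dazl difference was not tested, and 1 mouse against 1 mouse allows no test.

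At least 1 Dazl UMI was found in 92.3% (exact 95% binomial interval 81.5 to 97.9) of the early cells of mouse 1 and 91.0% (84.1 to 95.6) of those of mouse 2, at medians of 16823 and 20098 UMIs per cell. In Leydig-like cells, which should lack Dazl, it was found in 0 of 5 cells at a median of 9856 UMIs, which allows a share of up to 52.2%. After thinning each cell to 5000 UMIs the shares of early cells were 65.4% and 61.3%, against 8.14% and 6.39% in pachytene or later spermatocytes. The binomial intervals given here cover counting error only.

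Boll, the ancestral DAZ family member, had lower CPM in each cluster than in the one before. It was 128 and 111 CPM (mouse 1 and mouse 2) in early spermatocytes, 101 and 96.2 CPM in pachytene or later spermatocytes, 69.8 and 67.7 CPM in the Ssxb-rich cluster, 58.2 and 49.2 CPM in round spermatids, 34.8 and 38.2 CPM in the earlier and 9.31 and 9.64 CPM in the later elongating or condensing cluster. No pair of neighbouring clusters overlapped between the mice. On the TMM scale the first step was 0.00 ± 0.14 (95% interval -0.28 to 0.28), so a change was not detectable, while Boll fell into the Ssxb-rich cluster (-0.46 ± 0.14, edgeR adjusted p = 0.0053) and into the last cluster (-1.35 ± 0.20, edgeR adjusted p = 1.2e-05). The 2 steps between, -0.11 ± 0.14 and -0.04 ± 0.16, were not called (edgeR adjusted p = 0.56 and 0.95). By total UMIs both of these were called lower (-0.36 and -0.546, edgeR adjusted p = 0.0281 and 0.00475). Per cell the first step was called higher (0.407, edgeR adjusted p = 0.0371) and the fourth lower (-0.432, edgeR adjusted p = 0.0425). Spermatids were lower than spermatocytes by 1.05 ± 0.10 (a log2 change of -1.05, edgeR adjusted p = 3e-09).

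Within the DAZ family, Dazl and Boll therefore left the early cluster differently. At the first step the Dazl change was -4.63 ± 0.22 and the Boll change 0.00 ± 0.14, and their 95% intervals (-5.06 to -4.20 and -0.28 to 0.28) did not overlap.

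Ddx25, a DEAD-box helicase of the germ line that is required to complete spermatid development, followed another course. It was 542 and 582 CPM in early spermatocytes and 911 and 889 CPM in pachytene or later spermatocytes, and in the following 4 clusters in order 765 and 735, 587 and 592, 352 and 390, and 114 and 104 CPM. The second cluster was thus the highest in both mice, and no neighbouring clusters in the order of levels overlapped. The rise at the first step (0.94 ± 0.14, edgeR adjusted p = 4.8e-06) and the fall at the last (-1.16 ± 0.14, edgeR adjusted p = 6.9e-07) passed the test with TMM. The 3 steps between lay between -0.20 and -0.10 and did not. By total UMIs all 3 were called lower (-0.262, -0.348 and -0.667, edgeR adjusted p = 0.0414, 0.0117 and 5.23e-05). Per cell the second step (-0.996, edgeR adjusted p = 1.29e-06) and the fourth (-0.554, edgeR adjusted p = 0.00206) were called lower. Per cell, the mean of the mice rose from 11.99 ± 0.994 UMIs (SD, n = 2) to 30.6 ± 0.489 and ended at 1.43 ± 0.00869.

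Ddx25 was the most counted of the 9 genes, with 37446 UMIs, and up to 140 in 1 cell. Even in the last cluster 71.2% of the cells of mouse 1 and 65.4% of those of mouse 2 held a Ddx25 UMI, at medians of 11229 and 12453 UMIs per cell. Among Leydig-like cells, a type in which Ddx25 is also known to be expressed, 2 of 5 did (exact 95% binomial interval 5.27 to 85.3%) at a median of 9856, and no cluster that should lack Ddx25 was large enough to set a background.

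Tarbp2, the Dicer partner and double-stranded RNA-binding protein that also acts in protamine mRNA translation, rose and then fell. It was 189 and 216 CPM in early spermatocytes and 337 and 356 CPM in pachytene or later spermatocytes. It then was 184 and 189 CPM in the Ssxb-rich cluster, 88.6 and 86.8 CPM in round spermatids, 43.4 and 38.2 CPM in the earlier and 34.4 and 39.8 CPM in the later elongating or condensing cluster. All 5 steps were called for this gene with TMM. The rise of 1.03 ± 0.14 (edgeR adjusted p = 1.7e-06) was followed by falls of -0.84 ± 0.13, -0.84 ± 0.14 and -0.60 ± 0.16 on the log2 scale (edgeR adjusted p = 9e-06, 2.1e-05 and 0.0032), of which the last was not called without mouse 2 (edgeR adjusted p = 0.11). The last step was positive with TMM (0.47 ± 0.17, edgeR adjusted p = 0.032) but negative by total UMIs (-0.13) and called negative per cell (-1.05). It was called with DESeq2 (0.70) but not without either mouse (0.62 without mouse 1 and 0.27 without mouse 2), and the CPM of the mice overlapped between these clusters.

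Khdrbs1, a signal-responsive splicing and translation regulator, fell early. It was 165 and 126 CPM in early spermatocytes, 71.1 and 71.9 CPM in pachytene or later spermatocytes, and 14.8 and 18.8 CPM in the Ssxb-rich cluster. It then was 10.7 and 13.5 CPM in round spermatids, 4.77 and 8.84 CPM in the earlier and 5.36 and 3.86 CPM in the later elongating or condensing cluster. With TMM the first 2 steps were called, at -0.73 ± 0.17 (edgeR adjusted p = 0.0011) and -2.01 ± 0.18 (edgeR adjusted p = 2.3e-09), and none of the later steps were. By total UMIs the fourth step was called lower (-0.792, edgeR adjusted p = 0.0306), and per cell the fifth (-1.53, edgeR adjusted p = 0.00185). The first step was not called per cell (-0.33, edgeR adjusted p = 0.18) or without either mouse (-0.58 without mouse 1 and -0.62 without mouse 2).

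Khdrbs3, its relative in the STAR family, declined later. It was 104 and 111 CPM in early spermatocytes, 121 and 120 CPM in pachytene or later spermatocytes and 92.6 and 91.1 CPM in the Ssxb-rich cluster, and in the 3 spermatid clusters in order 58.9 and 63.4, 23.9 and 28.3, and 9.31 and 10.3 CPM. The 2 relatives thus differed most at the step into the Ssxb-rich cluster. Here Khdrbs1 changed by -2.01 ± 0.18 and Khdrbs3 by -0.34 ± 0.13 (edgeR adjusted p = 0.033), with 95% intervals of -2.37 to -1.65 and -0.60 to -0.07. The larger falls of Khdrbs3 came at the fourth step (-0.71 ± 0.17, edgeR adjusted p = 0.0013) and the fifth (-0.83 ± 0.21, edgeR adjusted p = 0.0035), the latter not called without mouse 2 (-0.75, edgeR adjusted p = 0.0997), as the second step was not without mouse 1 (-0.48, edgeR adjusted p = 0.0996). Its first step (0.42 ± 0.14, edgeR adjusted p = 0.019) was not called with DESeq2 (0.12), by total UMIs (0.16) or without mouse 1 (0.34).

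Of the Cpeb genes, Cpeb1 was counted mostly in early spermatocytes and Cpeb2 in every tested cluster. Cpeb1, which acts in early meiotic prophase, had 48 UMIs in all, of which 27 lay in early spermatocytes. This gave 12.01 CPM in mouse 1 and 5.78 CPM in mouse 2, against 0.576 and 0.402 CPM in pachytene or later spermatocytes. Because the early cluster is what carried Cpeb1 through the filter, its calls are no support and no test of this step is given. Round spermatids held no Cpeb1 UMI among 10370817, which allows up to 0.289 CPM, and the other spermatid clusters held 5 UMIs. Fold changes that involve round spermatids depend on the fit's handling of 0 and are not given.

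Cpeb2 was the only one of the 9 genes called higher in spermatids against spermatocytes. It was 36.04 and 39.2 CPM in early spermatocytes, 29.3 and 38.2 CPM in pachytene or later spermatocytes, 31.5 and 41.4 CPM in the Ssxb-rich cluster, 43.8 and 48.0 CPM in round spermatids and 36.7 and 42.4 CPM in the earlier elongating or condensing cluster. The last cluster was far lower, with 6.77 and 6.11 CPM. In spermatids against spermatocytes Cpeb2 was higher by 0.33 ± 0.14 with TMM (edgeR adjusted p = 0.036) but lower by total UMIs (-0.65, edgeR adjusted p = 1.9e-04) and per cell (-1.11, edgeR adjusted p = 7.2e-07), so its direction depended on the scale. The call was also lost without either mouse. The rise into round spermatids (0.57 ± 0.17, edgeR adjusted p = 0.0088) and the fall into the last cluster (-2.02 ± 0.25, edgeR adjusted p = 9e-07) were called with TMM. The rise was not called by total UMIs (0.328, edgeR adjusted p = 0.105), per cell (0.488, edgeR adjusted p = 0.0514) or without either mouse.

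Elavl1 stood apart, because the mice differed. In mouse 1 it was 56.4, 40.1, 38.8, 27.4, 20.04 and 3.10 CPM from the first to the last cluster. In mouse 2 it was 74.3, 111, 140, 93.6, 57.6 and 11.9 CPM. Mouse 2 was higher in all 6 clusters, and its level rose to the Ssxb-rich cluster where that of mouse 1 did not. The log2 ratio of mouse 2 to mouse 1 was 0.40 in the early cluster and 1.47 to 1.94 in the other 5. For the other genes with UMIs in every cluster this ratio lay between -0.98 and 0.89.

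The shares of cells with an Elavl1 UMI, after thinning to 5000 UMIs, were 28.8% and 30.6% (mouse 1 and mouse 2) in early spermatocytes but 19.2% and 41.6% in pachytene or later spermatocytes, 18.1% and 51.1% in the Ssxb-rich cluster and 14.2% and 35.5% in round spermatids. Elavl1 is expressed widely, so no cluster here should lack it. The median cell of the Ssxb-rich cluster held 0 Elavl1 UMIs in mouse 1 and 3 in mouse 2. The difference was thus spread over the cells and not carried by a few.

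Few other rows differed in this way. Of 3402 rows with at least 100 UMIs in each cluster from the second to the fifth, 9 (0.265%) were more than 2-fold higher in mouse 2 in all 4. These were Cep126, Elavl1, Otud3, Ppm1d, Purb, Rnf187, Sntb2, Tpgs2 and Ybx1, a list that was drawn up after the Elavl1 values had been seen. Cep126 was also the gene whose pattern over the 12 sums was most like that of Elavl1, with 50.5 CPM in mouse 1 and 201 CPM in mouse 2 in the Ssxb-rich cluster. With 1 library per mouse, the animal and its library cannot be told apart. Exons of Elavl1 overlap those of Ccl25, a chemokine gene on the opposite strand.

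**Figure D2:**
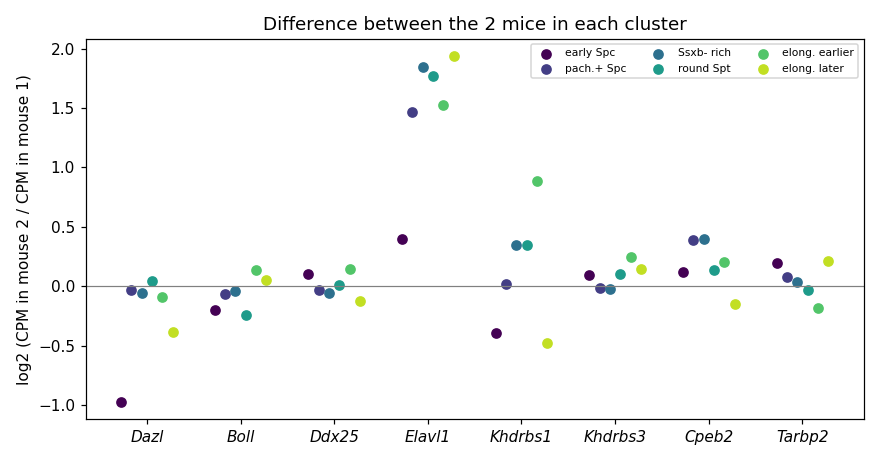
Log2 ratio of the CPM of mouse 2 to that of mouse 1 (y axis) for 8 genes (x axis), with 1 point for each of the 6 clusters; Cpeb1 is left out because round spermatids held no UMI. Elavl1 has 5 clusters between 1.47 and 1.94, and the farthest other point is Dazl in early spermatocytes at -0.98.

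Elavl1 was not called in any comparison in the main TMM-scaled fit, which had no term for the mouse. Its change in spermatids against spermatocytes was -0.45 ± 0.40 (edgeR adjusted p = 0.30), with a 95% interval of -1.24 to 0.34. The numbers of the sums pair them by animal, and with the mouse as a replicate block the same change was -0.45 (edgeR adjusted p = 1.6e-04) and Elavl1 was called together with the other genes. Without mouse 2 it was -1.01 (edgeR adjusted p = 0.014), and without mouse 1 it was not called. By total UMIs (-1.43, edgeR adjusted p = 0.0047) and per cell (-1.88, edgeR adjusted p = 2.3e-04) it was called lower, as it was at the last step (-2.46 and -3.38). The blocked fit also called Elavl1 at the first step (0.52, edgeR adjusted p = 0.0011), the second (0.25, edgeR adjusted p = 0.041), the third (-0.30, edgeR adjusted p = 0.032) and the last (-1.79, edgeR adjusted p = 6.2e-13). This block assumes the same difference between the mice in every cluster, which Elavl1 did not have. Over the first 2 steps it went from 56.4 to 40.1 and 38.8 CPM in mouse 1 but from 74.3 to 111 and 140 CPM in mouse 2. In CPM, the rises called at these 2 steps were thus seen in mouse 2 only. On the TMM scale without mouse 2, the change was 0.11 at the first step and -0.24 at the second.

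At each step the called genes were as follows. From early to pachytene or later spermatocytes 3 genes rose (Ddx25, Khdrbs3 and Tarbp2), beside 25.7% of all rows, and 2 fell (Dazl and Khdrbs1), beside 24.4%, apart from Cpeb1. Of all calls at this step, 51.3% were higher with TMM, 37.1% with DESeq2, 39.4% by total UMIs and 69.3% per cell. Into the Ssxb-rich cluster 1 gene rose (Dazl), beside 31.8% of all rows, and 4 fell (Boll, Khdrbs1, Khdrbs3 and Tarbp2), beside 30.8%. Here the share of higher calls was 50.7% with TMM and 27.3% per cell.

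From the Ssxb-rich cluster to round spermatids 1 gene rose (Cpeb2), beside 25.7% of all rows, and 1 fell (Tarbp2), beside 20.2%. The share of higher calls was 56.0% with TMM and 40.2% by total UMIs. With the replicate block 5 genes were called at this step, with Dazl (0.37, edgeR adjusted p = 0.047), Khdrbs3 (-0.34, edgeR adjusted p = 0.010) and Elavl1 in addition. In that fit 27.8% of all rows were called higher and 24.4% lower at this step. From round spermatids to the earlier elongating or condensing cluster none rose, beside 23.4% of all rows, and 2 fell (Khdrbs3 and Tarbp2), beside 20.8%. The share of higher calls was 52.9% with TMM, 30.6% by total UMIs and 35.0% per cell.

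Into the later elongating or condensing cluster 1 gene rose (Tarbp2), beside 16.5% of all rows, and 4 fell (Boll, Ddx25, Khdrbs3 and Cpeb2), beside 23.2%. Per cell, 8 of the 9 fell and none rose, beside 63.6% of all rows called lower. In this scaling 0.476% of all calls were higher, against 41.5% with TMM, 53.7% with DESeq2 and 14.3% by total UMIs. The median depth fell from 23701 to 11702 UMIs per cell at this step, and its part in the changes was not tested.

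**Figure D3:**
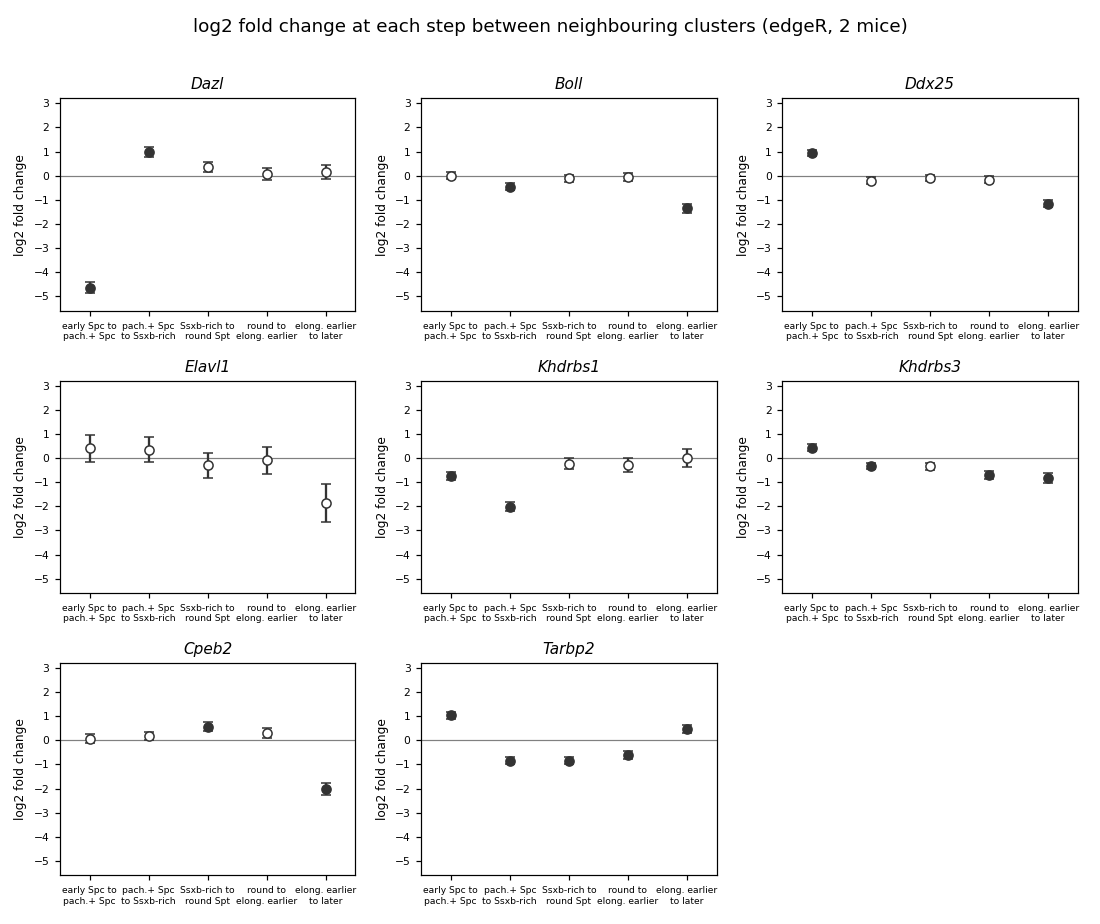
Log2 fold change with its standard error (y axis) from the edgeR fit at each of the 5 steps between neighbouring clusters (x axis) for 8 genes, with filled points for adjusted p-values under 0.05; Cpeb1 is left out because it passed the filter only through its level in early spermatocytes. Dazl has its largest change at the first step (-4.63) and Khdrbs1 at the second (-2.01), while Boll, Ddx25 and Cpeb2 have theirs at the last.

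Levels were also followed in 12 bins of 211 or 212 cells along pseudotime. Pseudotime used the cells of the tested clusters and the same principal components that formed them. Bins 2, 3, 5, 6 and 8 each lay within 1 cluster, so the courses are no independent check of the clusters. Dazl was 232 CPM in mouse 1 and 146 CPM in mouse 2 in the first bin and at most 24.3 CPM in any later bin. Boll declined from 119 and 105 CPM in the first bin to 7.69 and 13.0 CPM in the last. Ddx25 was highest in bin 3 of both mice, with 909 and 940 CPM. Tarbp2 was highest in bin 2 of mouse 1 and bin 3 of mouse 2, and Cpeb2 in bin 8 of mouse 1 and bin 7 of mouse 2. Elavl1 was highest in bin 1 of mouse 1 but bin 4 of mouse 2.

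**Figure D4:**
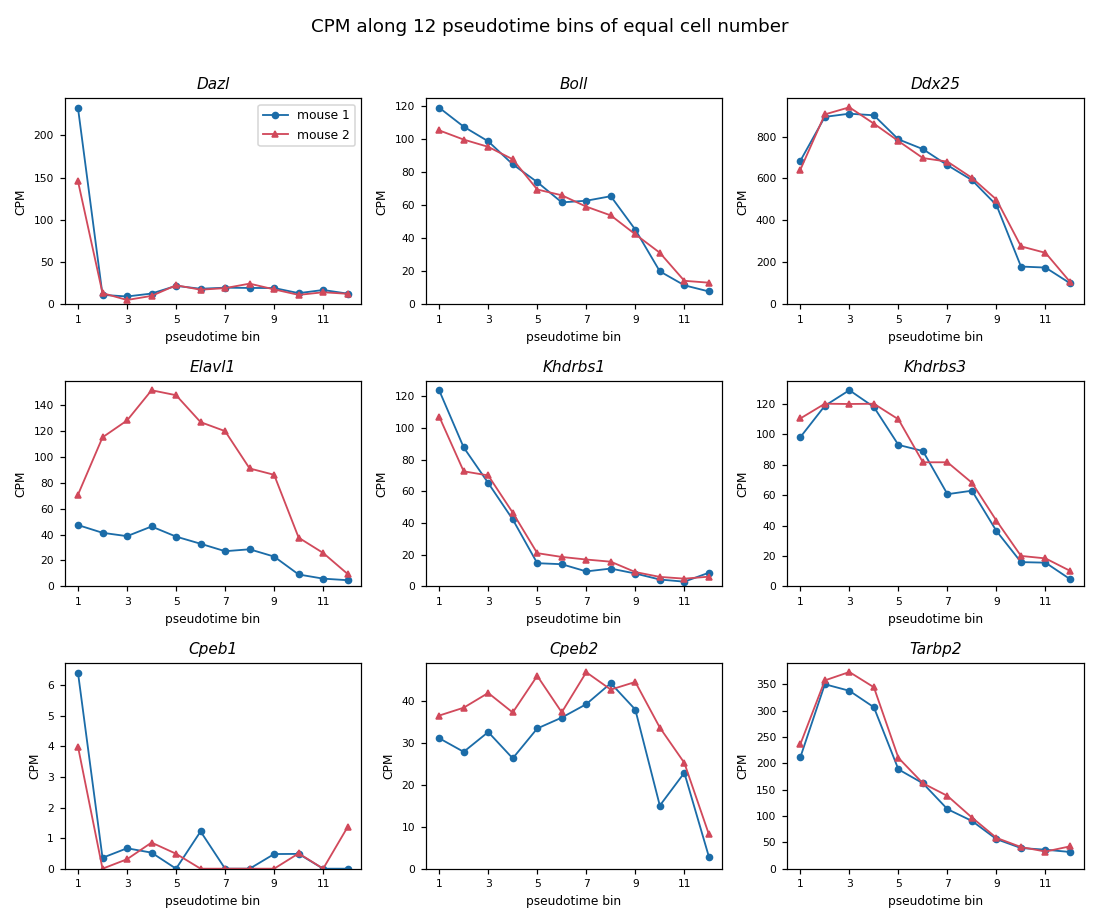
CPM of each gene (linear y axes starting at 0) in 12 pseudotime bins of 211 or 212 cells (x axis), with a line for each mouse. The lines of the mice part for Elavl1, which reaches 151 CPM in mouse 2 and 47.3 CPM in mouse 1, and in bin 1 for Dazl (232 and 146 CPM) and Cpeb1 (6.40 and 3.99 CPM), and the order of the genes' declines runs from Dazl and Cpeb1 through Khdrbs1, Tarbp2 and Boll to Cpeb2.

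Genes with the most similar patterns were sought by the correlation of log2(CPM + 1) over the 12 sums among 6029 genes with at least 1000 UMIs. The sums share animals and clusters, so the values are descriptions. Dazl was most like Romo1, Anapc16 and Gml (r = 0.983, 0.978 and 0.962), Khdrbs1 like Hint3, Trappc1 and Nabp2 (0.989 each after rounding), and Cpeb1 like Oaz1, Ndufa1 and Rpl22 (0.981, 0.956 and 0.952). Boll was most like Ndufb5, Dync1i2 and Ubn2 (0.997, 0.996 and 0.995), Ddx25 like Yif1a, Tmbim4 and Lrwd1 (0.998, 0.997 and 0.996), and Khdrbs3 like Tex10, Cct3 and Cct4 (0.998, 0.997 and 0.997). Tarbp2 was most like Ppp2r2a, Cant1 and Crat (0.998, 0.994 and 0.994), Cpeb2 like Gtf2a2, Mdm2 and Pdha2 (0.985, 0.980 and 0.977), and Elavl1 like Cep126, Ppp3cc and Odc1 (0.982, 0.949 and 0.919). Among the 9 genes themselves, Boll and Khdrbs3 were the closest pair (r = 0.9701).

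Relatives of the 9 genes in the same protein families were counted next. Of 14 listed relatives, 11 were tested, and in spermatids against spermatocytes 5 rose, 4 fell and 2 were not called. The 5 include Elavl4 and Elavl2, which passed the filter through their level in the elongating or condensing clusters. Over all rows, 42.2% were called higher and 42.8% lower. The median log2 change of the 11 relatives was 0.13, beside -0.05 for all rows. By total UMIs 4 were higher and 5 lower, beside 32.3% and 56.3% of all rows. Per cell 3 were higher and 7 lower, beside 28.6% and 60.6%. Qk (quaking), a STAR family member like Khdrbs1, fell from 95.2 and 97.0 CPM in early spermatocytes to at most 5.36 CPM in the elongating or condensing clusters (-3.41 ± 0.16, edgeR adjusted p = 3.1e-15). Adad2, a double-stranded RNA-binding protein of germ cells, was 133 and 109 CPM in early spermatocytes and at most 13.2 CPM elsewhere (-3.33 ± 0.19). Strbp, another double-stranded RNA-binding protein, fell as well (-0.68 ± 0.11), while Ddx19b, an mRNA export helicase related to Ddx25, rose with TMM (0.78 ± 0.12). The CPM of Ddx19b showed no such rise. It was 53.6 and 75.6 CPM in early and 40.2 and 42.1 CPM in pachytene or later spermatocytes. In the 3 spermatid clusters in order it was 33.6 and 40.9, 53.9 and 66.1, and 47.1 and 37.9 CPM.

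The ELAV relatives Elavl4 and Elavl2 had their highest CPM in the elongating or condensing clusters, at low counts. Because their level there carried them through the filter, their calls are no support. Elavl4 was between 6.68 and 9.87 CPM in the elongating or condensing clusters and at most 1.16 CPM before, and Elavl2 reached 2.86 and 4.24 CPM in the earlier of these clusters. Elavl4 had 109 UMIs and Elavl2 48 in all. Adad1, the relative with the most UMIs, was not called (0.02 ± 0.09) although it moved within each class, from 143 and 127 CPM in early spermatocytes to 400 and 384 CPM in the Ssxb-rich cluster and 26.8 and 24.1 CPM in the last.

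Partners and cofactors in deadenylation, cleavage and polyadenylation, silencing and export were counted in the same way. Of 30 listed genes 26 were tested, of which 16 fell, 6 rose and 4 were not called, beside 42.8% lower and 42.2% higher over all rows. Their median was -1.65 beside -0.05 for all rows. By total UMIs and per cell 20 fell and 6 rose, where 56.3% and 60.6% of all rows were lower, and no test of the list was made. Ddx6, a helicase of processing bodies, fell from 101 and 79.7 CPM in early spermatocytes to at most 1.41 CPM in the 3 named spermatid clusters (-4.97 ± 0.21). Dazap1, which binds Dazl, fell as well (-1.51 ± 0.09). Ago2, an Argonaute protein, is also among the 16. It was 21.3 and 31.8 CPM in early and 5.95 and 7.51 CPM in pachytene or later spermatocytes. From the Ssxb-rich cluster on it was at most 0.85 CPM. Because its level in spermatocytes carried Ago2 through the filter, its call is no support.

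The partners that rose included the poly(A) nuclease gene Parn, which was at most 3.96 CPM up to the Ssxb-rich cluster and 96.9 and 93.0 CPM in the earlier elongating or condensing cluster, before it dropped to 8.18 and 7.07 CPM in the later one (4.74 ± 0.20 over all spermatids). Sympk, which encodes the polyadenylation scaffold symplekin, rose from 50.8 and 58.6 CPM in early spermatocytes to 210 and 229 CPM in the same cluster (2.45 ± 0.11). Btg1, which binds the CCR4-NOT deadenylase, reached 998 and 1073 CPM there (2.68 ± 0.10), and Dzip1, a DAZ-interacting protein, was highest in round spermatids with 207 and 218 CPM.

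The mRNAs reported as targets of these proteins split by stage. All 15 were tested and called, 9 lower and 6 higher in spermatids, beside 42.8% lower and 42.2% higher over all rows. A call by itself was thus common. The median of the 15 was -1.07 beside -0.05 for all rows. Their split was the same by total UMIs and per cell, where 56.3% and 60.6% of all rows were called lower. The list was drawn from genes known for their stage, so its directions are not independent of the stages compared. Sycp3 (-3.64 ± 0.13) and Hmgb2 (-3.93 ± 0.12) fell most. Ace, whose germ cell isoform is needed for male fertility, rose most, by 5.14 ± 0.13, followed by Tnp1 (4.73 ± 0.18), and Prm1, Prm2 and Tnp2, which package sperm DNA, rose by 4.47 ± 0.22, 4.41 ± 0.14 and 4.58 ± 0.18. Prm1 was also found at 2967 and 1380 CPM in early spermatocytes, where it should be absent. The part of free RNA in the low levels of the 9 genes was not tested.

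In GRCm38 with the GENCODE vM21 annotation, the genes are protein coding and lie on 8 chromosomes. Dazl lies at chr17:50279395-50293636, Boll at chr1:55248658-55363469, Ddx25 at chr9:35536647-35558528, Elavl1 at chr8:4285382-4325413, Khdrbs1 at chr4:129703164-129742303 and Cpeb1 at chr7:81347026-81455465, all on the minus strand. Khdrbs3 (chr15:68928420-69101211), Tarbp2 (chr15:102518192-102523676) and Cpeb2 (chr5:43233170-43289724) lie on the plus strand. Besides Elavl1, exons of Cpeb2 overlap an antisense gene, Gm7854, and no exon of the 9 genes overlaps an exon on its own strand.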

How the data were processed

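Per the labels and the study's methods, testes were dissociated enzymatically, and the authors demultiplexed reads with bcl2fastq 2.17.1.14, counted them with Cell Ranger 2.0.0 against mm10 with added repeat sequences, and combined both mice after downsampling reads of the deeper library to equal depth per cell. The deposited matrix holds raw UMI counts per row and cell (51868 rows, of which 50686 are genes). Barcode endings were taken as mouse numbers.

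The 9 members and the lists of relatives, partners, targets and markers were chosen with earlier results of these data known. Counts were scaled to the median depth, log transformed and standardised, and K-means (K = 9, 10 restarts, seed 42) was run on 10 principal components of 27725 rows, leaving out 66 rows (members and listed genes). Clusters took the class with the highest mean marker score where at least 3 markers had 1.5 times the CPM of all cells. Diffusion pseudotime used 30 neighbours. UMIs were summed per mouse and cluster (12 sums) and tested with edgeR's quasi-likelihood test (TMM, its default filter, cluster as the only term). Spread comes from 2 animals per cluster, pooled over clusters. Named genes were the members, from each list the 4 most counted and, for each direction, the 2 that changed most among those called, and per member the 3 most correlated genes. Alternatives were DESeq2, total UMIs, UMIs per cell, no filter, the mouse as a replicate block, leaving out each mouse, thinning to 5000 UMIs, no doublets, K = 10, seed 1 and the 2000 most variable rows; counting the Ssxb-rich cluster with either class was added after seeing the data. Same-numbered sums come from the same animal, and deviations from cluster means correlated at 0.03 to 0.31 between clusters over 12495 rows.

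On simulated counts for spermatids against spermatocytes (12751 genes), 93 of 97 genes changed 4-fold and 70 of 103 changed 2-fold were recovered with 6 false calls. From pachytene or later spermatocytes to the Ssxb-rich cluster (12723 genes) it was 87 of 99 and 63 of 101, with 9 false calls. Each run changed 200 genes, with a fixed spread, independent sums and the same mean share of the other genes in every cluster. The data hold broader shifts and sums paired by animal, so false calls there were not measured. Software was Python 3.11.15, scanpy 1.11.5, scikit-learn 1.9.0, R 4.3.3, edgeR 4.0.16 and DESeq2 1.42.0. Sequences came from RefSeq (promoters) and GENCODE (transcript tails).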

Additional observations from a re-analysis of the deposited data

Results flagged for a closer look

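Of the 19 cells that entered no comparison, the Sertoli-like and spermatogonium-like cells held UMIs of 5 of the 9 genes above the limit that a count of 0 allows (35.4 and 40.1 CPM). Genes were listed here for more than 3 UMIs in a group, and the limit stands for 3 UMIs. All listed values thus had to exceed it, and the limit is no background for free RNA. Dazl was 1498 CPM in the 7 spermatogonium-like cells (112 UMIs, exact 95% Poisson interval 1234 to 1803 CPM), of which all held at least 7 UMIs. Dazl was 212 CPM in the 7 Sertoli-like cells, where 17 of its 18 UMIs lay in a single cell. Ddx25 was 106 CPM in Sertoli-like and 120 CPM in spermatogonium-like cells (in the latter 7 UMIs in mouse 1 and 2 in mouse 2). Elavl1 was 94.4 and 120 CPM, and Khdrbs1 was 94.4 and 93.7 CPM. Tarbp2 was 59.0 CPM in Sertoli-like cells. All but the Dazl values rest on 5 to 9 UMIs.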

How the results depend on the processing

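Of 615 values of single genes under alternatives, 515 kept their direction and their side of the threshold, 30 lost and 35 gained a call, and 35 changed sign, of which 3 were called both ways (Cpeb2 by total UMIs and per cell and Tarbp2 per cell). The values kept include all those with K = 10, which returned the same tested clusters as the main run. These could not differ and are no check. The steps are numbered from early spermatocytes. The sign changed, per cell, Dazl at step 4 (-0.32), Dazl at step 5 (-1.37), Elavl1 at step 2 (-0.42), Cpeb1 at step 5 (-0.73), Cpeb2 in spermatids against spermatocytes (-1.11), Cpeb2 at step 2 (-0.60), Cpeb2 at step 4 (-0.10) and Tarbp2 at step 5 (-1.05). It changed, by total UMIs, Dazl at step 4 (-0.44), Dazl at step 5 (-0.44), Boll at step 1 (-0.26), Cpeb2 in spermatids against spermatocytes (-0.65), Cpeb2 at step 1 (-0.18), Cpeb2 at step 4 (-0.21) and Tarbp2 at step 5 (-0.13). It changed, without the filter, Dazl at step 4 (-0.45), Khdrbs1 at step 5 (0.15) and Cpeb2 at step 4 (-0.22). It changed, without mouse 1, Dazl at step 4 (-0.01, against 0.10 without mouse 2), Dazl at step 5 (-0.05, against 0.28 without mouse 2) and Boll at step 4 (0.12, against -0.28 without mouse 2). It changed, with another seed, Dazl at step 4 (-0.02) and Boll at step 1 (-0.01). It changed, with DESeq2, Boll at step 1 (-0.29), Khdrbs1 at step 5 (0.23) and Cpeb2 at step 1 (-0.21). It changed, with the replicate block, Boll at step 1 (-0.00). It changed, with thinned cells, Boll at step 1 (-0.04) and Cpeb2 at step 2 (-0.18). It changed, with the 2000 most variable rows, Elavl1 in spermatids against spermatocytes (0.14). It changed, without mouse 2, Elavl1 at step 2 (-0.24, against 0.25 without mouse 1), Elavl1 at step 4 (0.01, against -0.21 without mouse 1), Khdrbs1 at step 5 (0.77, against -0.63 without mouse 1), Cpeb1 at step 5 (-0.15, against 1.39 without mouse 1) and Cpeb2 at step 2 (-0.09, against 0.03 without mouse 1). The count of called genes in spermatids against spermatocytes (8, Cpeb1 included) stayed between 6 and 9, and those of the listed genes stayed within 1.5 times of 9, 22 and 15 under every alternative run. At step 2 the count moved from 5 to 3 with thinned cells. At step 3 it moved from 2 to 4 by total UMIs, 5 with the replicate block and 1 with thinned cells, and was 1 without either mouse. At step 4 it moved from 2 to 4 per cell, 5 by total UMIs and 6 without the filter, and was 1 without mouse 2 and 2 without mouse 1. At step 5 it moved from 5 to 8 per cell, and was 3 without mouse 2 and 4 without mouse 1. A mouse was left out of the compared clusters only, whose single sums were assumed to vary like the other clusters. The most variable rows gave too few clusters for the steps, which were not run there. The cause of these changes was not tested. With 2 animals the precision is limited. Binomial and Poisson intervals and limits cover counting error only, while the intervals of log2 fold changes also include the spread between sums in the fit.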
